A study of Mus musculus with 24 samples.

Results

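The genes described here encode the mitochondrial ribosomal proteins. They were taken as every row whose gene symbol was Mrpl or Mrps followed by a number and at most 1 letter, and 78 of the 55335 genes counted met that rule. Each of the 78 symbols had a single entry, all were annotated as protein coding, and all passed the filter on low counts in every comparison, since the lowest count of any of them in any library was 91.

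RNA-seq was performed on primary osteoblasts (OBs) of mouse parietal bone, the flat bone of the skull roof, in 24 libraries. The 2 genotypes were WT, and Het for the G610C mutation of Col1a2, which replaces a glycine of the helical part of the proα2(I) chain of type I procollagen by cysteine, carried on the C57BL/6J background. Cells came from pups a few days after birth, were pooled over several pups of 1 genotype, and received osteogenic medium with ascorbate. RNA was taken 8, 14 and 21 days after seeding, with 4 libraries for each of the 6 groups of genotype and day. The pooled cells of a preparation were shared by the wells drawn from it, so the libraries were not separate animals. The study's methods give fewer wells for each genotype and day than the 4 libraries held here, so whether each library is a well of its own is not known, and p-values here measure the spread between libraries, which may be technical. The study ran 2 cultures from different litters that differed in plating density and in early oxygen, and the labels do not say which library came from which. Libraries carrying replicate number 1 held 17140202 to 25825762 counts, and those numbered 2 to 4 held 28159342 to 59734231.

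Mitochondrial ribosomes translate only the few mRNAs that mitochondria make from their own genome, all of which encode subunits of the respiratory chain and of ATP synthase. Their rRNAs are made inside the organelle, while every protein of the small and large subunits is encoded in the nucleus, translated in the cytosol and imported. Many of these proteins descend from bacterial ribosomal proteins and others were added in the mitochondrial lineage. In bone, type I collagen is made in bulk by OBs, and the G610C chain folds poorly in the endoplasmic reticulum. The import chaperone Hspa9 (mt-HSP70) and the stress transcription factor Atf5 were the mitochondrial themes of the study. In these libraries at days 14 and 21, Hspa9 was 1.69-fold higher in Het (adjusted p = 2.6e-05 by edgeR's quasi-likelihood test).

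Values are given as relative quantity (RQ), which sets a gene's count against 4 housekeeping genes of the same library (Sdha, Mrfap1, Actb and Actg1), as the ratio to the geometric mean of their counts. An RQ of 0.08 is thus 0.08 of that mean. Fold changes and their standard errors (SE) come from a model of all genes tested with libraries scaled by the same 4 genes, and a gene is called changed at a Benjamini-Hochberg adjusted p under 0.05.

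Together the 78 genes took 1837 to 2626 CPM of a library. To compare levels between genes, mean RQ was divided by exon length. On this per-kilobase scale the members spanned 32.2-fold, from 0.00306 to 0.0983 RQ per kb with a median of 0.0208. The highest levels belonged to Mrps21 (0.0983 ± 0.0144 RQ per kb, SD over 24 libraries), Mrpl54 (0.0897 ± 0.0113) and Mrpl52 (0.0744 ± 0.00965), followed by Mrps6 (0.0606 ± 0.0120) and Mrpl20 (0.0577 ± 0.00727). Mrps21, Mrps6 and Mrpl20 have bacterial counterparts, and Mrpl52 and Mrpl54 do not. The spread of neighbours in that order overlapped. The lowest were Mrps35 (0.00306 ± 0.000363), Mrpl1 (0.00427 ± 0.000701), Mrps30 (0.00516 ± 0.000547), Mrps10 (0.00531 ± 0.000433) and Mrps22 (0.00567 ± 0.000700). Annotated exon length sums over all isoforms, so a gene with a long, rarely used exon gets a low value on this scale.

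The comparison of Het with WT was made at days 14 and 21, when the cultures deposit collagen matrix. It asked how the bulk cultures of both genotypes differed. Of the 78 members 16 were higher in Het, 1 (Mrps6) was lower and 61 did not pass the test. The largest rise was 1.22-fold (Mrpl52), Mrps6 was at 0.756-fold, and the median over all 78 was 0.13 on the log2 scale, against -0.05 over all 19845 genes tested. Estimates were above 0 for 71 members. The 16 made up 20.5% of the members, where 7.27% of all genes were higher in Het, and the single lower one made up 1.28%, where 8.87% of all genes were lower. Of the 26 small subunit proteins 7 were higher and 1 was lower, with a median of 0.14, and of the 51 large subunit proteins 9 were higher and 0 lower, with a median of 0.12. By origin, 9 of 46 members with a bacterial counterpart and 7 of 31 without one were higher, with medians of 0.13 and 0.12. Mrps18a and Mrps18b were counted as without one, though they are paralogs in a family of bacterial origin. No test between these groups of members was run. The remaining member, Mrps36, is now known as a component of the alpha-ketoglutarate dehydrogenase complex rather than of the ribosome, and had an estimate of 0.13 ± 0.07 (SE, adjusted p = 0.20).

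Mrpl52, a large subunit protein with no bacterial counterpart (chromosome 14, 54426909 to 54429756, plus strand, GRCm38), gave the lowest adjusted p of all members. Its RQ was 0.0725 at lowest, 0.0768 at the median and 0.0800 at highest in the 8 WT libraries, and 0.0837, 0.0922 and 0.117 in the 8 Het libraries. Every Het library lay above every WT library, the only member for which this held, where 0.398% of all genes tested were so separated upward and 0.524% downward. The log2 fold change was 0.28 ± 0.05 (SE, adjusted p = 0.0031).

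Mrpl12 (chromosome 11, 120484613 to 120489065, plus strand), the protein of the ribosomal stalk that receives translation factors, had an RQ of 0.0655 at lowest, 0.0743 at the median and 0.0945 at highest in WT. In Het the same values were 0.0801, 0.0870 and 0.105. The groups overlapped through WT day 14 replicate 1 alone, and Het was above WT of the same day and replicate number in 8 of 8 pairs. The log2 fold change was 0.26 ± 0.05 (adjusted p = 0.0045).

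Mrps18b (chromosome 17, 35910379 to 35916389, minus strand), a small subunit protein, had a lowest, median and highest RQ of 0.0217, 0.0239 and 0.0301 in WT. In Het they were 0.0245, 0.0308 and 0.0325. It was likewise higher in Het in 8 of 8 pairs, with a log2 fold change of 0.27 ± 0.06 (adjusted p = 0.0082). Its exons share 638 bases with Gm16279, an antisense gene on the opposite strand, whose own estimate was 0.10 ± 0.05 (adjusted p = 0.20). Whether counting used strand is not given in the sources used here, so reads of the shared bases could not be assigned.

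The remaining large subunit members with the largest differences all have bacterial counterparts. Mrpl21 had a median RQ of 0.0364 in WT (0.0357 to 0.0445) against 0.0462 in Het (0.0373 to 0.0574, log2 fold change 0.27 ± 0.08, adjusted p = 0.026). Mrpl22, which lines the tunnel through which the new protein leaves, had a median of 0.0233 in WT (0.0225 to 0.0265) against 0.0286 in Het (0.0245 to 0.0340, log2 fold change 0.27 ± 0.06, adjusted p = 0.012). Both pairs of groups overlapped, and in each gene 7 of 8 pairs were higher in Het. Mrpl13 ranged from 0.0629 to 0.0728 in WT and from 0.0653 to 0.0933 in Het (0.22 ± 0.06, adjusted p = 0.019), and its exons share 330 bases with Mtbp on the opposite strand, which was itself higher in Het (0.33 ± 0.07, adjusted p = 0.0088). Mrps22, a small subunit protein found only in mitochondria, was called with almost no margin (0.25 ± 0.08, adjusted p = 0.0498). The other members called higher were Mrpl2, Mrpl37 and Mrpl38 of the large subunit, Mrps30, which carries a small subunit symbol but sits in the large subunit, and Mrps7, Mrps10, Mrps15, Mrps24 and Mrps26 of the small subunit, with log2 fold changes from 0.16 (Mrps10) to 0.20 (Mrpl2).

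Mrps6, a small subunit protein related to bacterial S6 (chromosome 16, 92058270 to 92112227, plus strand), was the exception. Its RQ was 0.0877 at lowest, 0.112 at the median and 0.134 at highest in WT. It was 0.0591, 0.0834 and 0.103 in Het, a log2 fold change of -0.40 ± 0.11 (adjusted p = 0.019). Het was above WT in 1 of 8 pairs, replicate number 1 of day 21, and for replicate number 1 the ratio of Het to WT over both days was 1.02, and for numbers 2 to 4 it was 0.681. Mrps6 shares 159 exon bases with Slc5a3, a sodium-coupled myo-inositol transporter on the same strand, and 305 with Gm49711. Both neighbours were lower in Het, Slc5a3 with a log2 fold change of -0.82 ± 0.15 (adjusted p = 0.0035) and Gm49711 with -0.45 ± 0.12 (adjusted p = 0.024). The part that shared bases have in the count of Mrps6 was not tested.

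**Figure D1:**
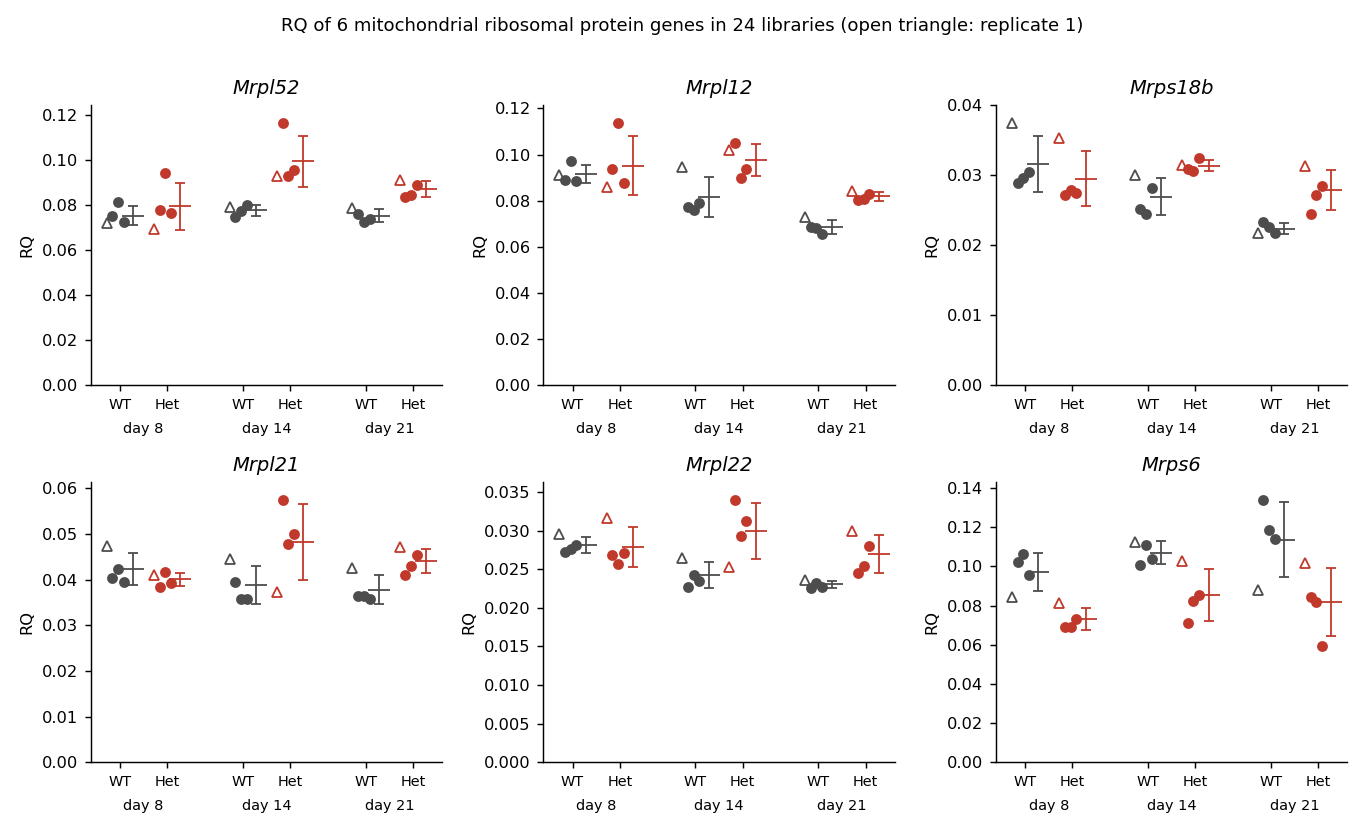
RQ (vertical axis, from 0) of Mrpl52, Mrpl12, Mrps18b, Mrpl21, Mrpl22 and Mrps6 in each of the 24 libraries, by day and genotype, with the mean and SD of 4 libraries beside the points and replicate 1 as an open triangle. Mrpl52 in Het at days 14 and 21 lay from 0.0837 to 0.117, above all WT libraries of those days, and Mrps6 lay lower in Het than in WT in 7 of the 8 pairs of those days, with replicate 1 of day 21 as the exception.

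**Figure D2:**
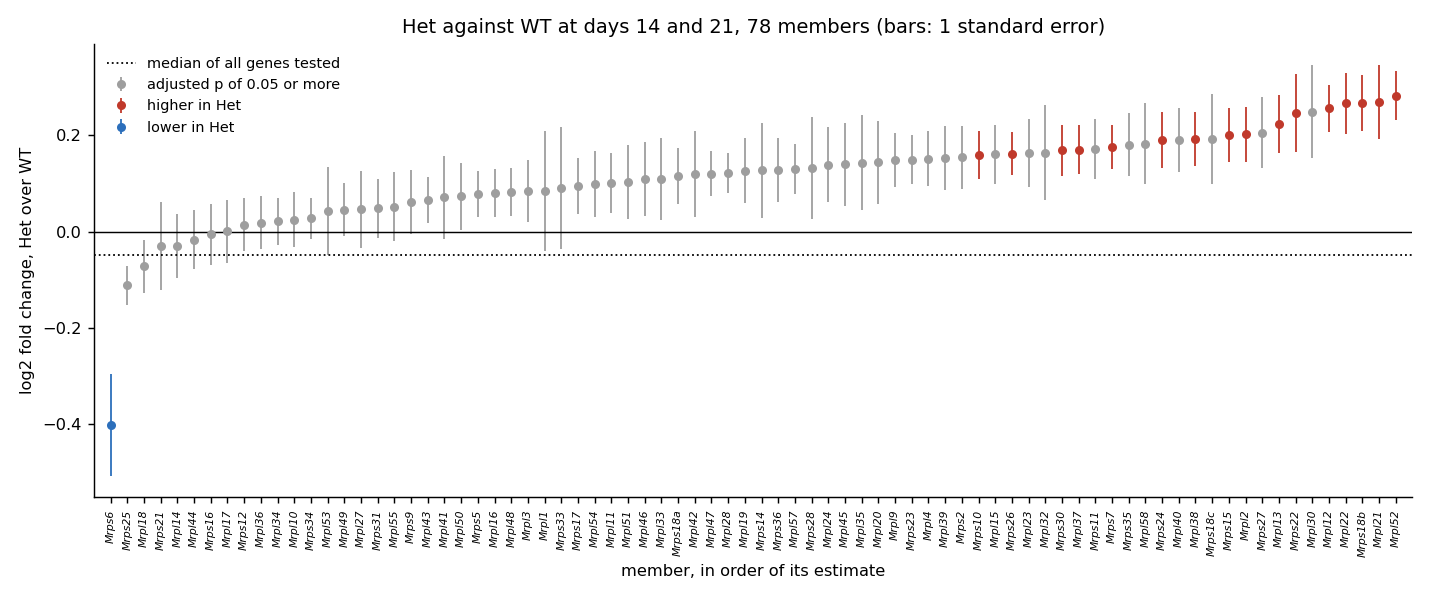
Log2 fold change of Het over WT at days 14 and 21 (vertical axis, bars are 1 SE) for the 78 members in order of their estimates, with the 16 called higher in red, Mrps6, called lower, in blue, and the median of all genes tested as a dotted line at -0.05. Of the estimates 71 lie above 0.

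The level of the members as a whole was followed library by library as the median over the 78 of log2 RQ, centred for each gene on its mean over all libraries. At day 14 Het lay at 0.12 ± 0.13 (SD, n = 4) and WT at -0.02 ± 0.10, and at day 21 Het lay at 0.03 ± 0.09 and WT at -0.06 ± 0.06. At day 8 the genotypes were at -0.03 ± 0.06 (Het) and -0.02 ± 0.07 (WT). The libraries of a group were thus spread about as widely as the genotypes differed. The highest library was Het day 14 replicate 2, at 0.30. Replicate 1 was the highest library of its group in 5 of the 6 groups, and the lowest in Het day 14, where it stood at -0.004 against 0.13 for WT day 14 replicate 1.

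Counted pair by pair, the number of the 78 members with a higher RQ in Het than in WT at day 14 was 14 for replicate number 1, 75 for number 2, 71 for number 3 and 69 for number 4. At day 21 the 4 numbers gave 66, 40, 61 and 67 members, and at day 8 they gave 40, 27, 42 and 49. Replicate number 1 at day 14 was the only one of the 8 later pairs in which most members were lower in Het. Within replicate number 1 alone, pooling days 14 and 21, 38 of 78 members were higher in Het with a median ratio of 0.996, and within numbers 2 to 4 it was 72 of 78 with a median ratio of 1.13.

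**Figure D3:**
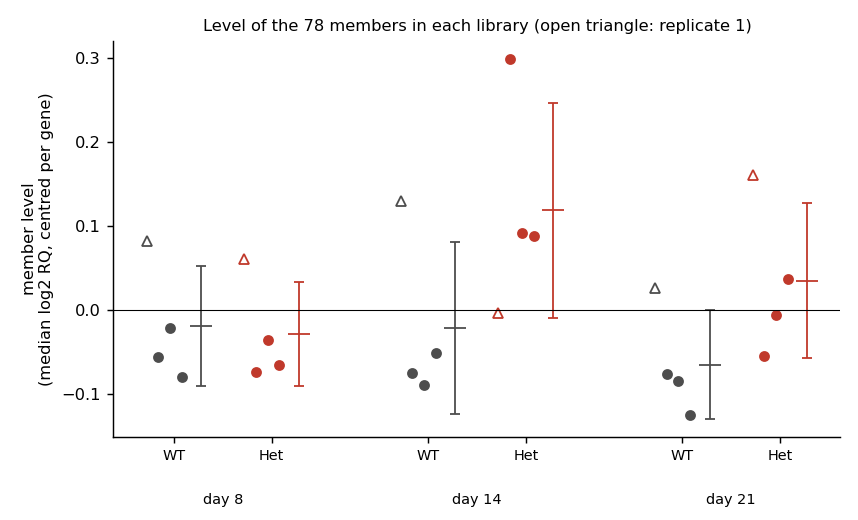
Level of the 78 members (vertical axis, median of log2 RQ centred for each gene) in each library, by day and genotype, with the mean and SD of 4 libraries beside the points and replicate 1 as an open triangle. Het day 14 replicate 2 stands highest at 0.30, and replicate 1 lies above the other libraries of its group except in Het day 14.

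The deviation of each gene from its group means was correlated with the mean deviation of the other 77 over the 24 libraries, which share the same housekeeping scale. Its median was 0.72 over the members, against 0.25 for the correlation of the 20209 other genes tested with the members' mean deviation. Among replicates 2 to 4 these medians were 0.69 and 0.04. Over all libraries r was above 0 for 76 members and was highest for Mrpl40 (0.96), Mrpl42 (0.94) and Mrpl53 (0.92). The 2 exceptions were Mrps6, at -0.24, and Mrps25, at -0.02. Among replicates 2 to 4 they were at -0.44 and -0.55, Mrpl36 was at -0.009 and Mrpl1 at 0.01. Mrps25 shares 4590 exon bases with Nr2c2 on the opposite strand. Genes named from these correlations were chosen after their values were seen.

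Cell types in the cultures also differed between genotypes. Of the 8 macrophage markers measured, 7 were higher in Het at days 14 and 21, with a median log2 fold change of 1.00, and their summed RQ was 1.23 to 6.18 in the 8 WT libraries and 2.71 to 16.3 in the 8 Het libraries. Of the 7 OB markers, 5 were lower in Het, and their summed RQ was 99.4 to 184 in WT and 93.8 to 147 in Het. The OB genes Col1a1, Runx2, Sp7 and Ibsp had counts in all libraries, as did the chondrocyte markers Acan, Col2a1 and Sox9. All 3 chondrocyte markers had estimates below 0 in Het, with a median of -0.74, and 1 (Sox9) was called lower. Their summed RQ was 3.19 to 19.5 in WT and 1.10 to 20.9 in Het, and among replicates 2 to 4 it was 3.19 to 11.8 in WT and 1.10 to 2.35 in Het, with no overlap. Of the 5 osteoclast markers 1 was higher and 1 lower, with a summed RQ of 0.880 to 1.09 in WT and 0.663 to 1.08 in Het. Most of each of these sums came from 1 gene, so they say little of the other markers. Mean RQ at days 14 and 21 was 128 for Col1a1 (OBs) and 4.37 for Lyz2 (macrophages). It was 5.52 for Col2a1 (chondrocytes) and 0.861 for Ctsk (osteoclasts). The endothelial markers Pecam1 and Cdh5 and the fibroblast marker Clec3b were near 0, with at most 44 counts in a library, and the smooth muscle marker Acta2 did not pass the test. The part of these cell types in the levels of the ribosomal protein genes was not tested, and in bulk RNA fewer cells of a type and less RNA per cell cannot be told apart.

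Taken day by day, with less data behind each value, fewer members passed. At day 8 none did in edgeR, where 0.325% of all genes were higher and 0.315% lower: 1 member had an unadjusted p under 0.05, and DESeq2's Wald test called 0. The median of the members was 0.01 against -0.07 for all genes. That member was Mrps6, whose 4 Het libraries (RQ 0.0690 to 0.0811) lay below the 4 WT libraries (0.0841 to 0.106), as 3.49% of all genes did at that day, with a log2 fold change of -0.41 (adjusted p = 0.22).

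At day 14 Mrpl52 (0.36 ± 0.08, adjusted p = 0.025), Mrps15 (0.29 ± 0.07, adjusted p = 0.037) and Mrpl22 (0.31 ± 0.09, adjusted p = 0.0497) were higher in Het. They were 3.85% of the members, where 1.96% of all genes were higher and 1.54% lower, and the median of all members was 0.15. With replicate number as a block 8 members were higher, with all libraries of number 1 left out 46 were higher and 1 lower, and with number 2, 3 or 4 left out 0 were. The shares of all genes called in those fits are not given here. No member was lower in edgeR or by DESeq2's Wald test, and 1 had an unadjusted p under 0.05 in that direction. In 6 members (7.69%) the 4 Het libraries lay above the 4 WT libraries, as they did in 2.17% of all genes: Mrpl52, Mrps18b, Mrps24, and, named after their values were seen, Mrpl11, Mrpl48 and Mrpl54.

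At day 21 no member passed in edgeR, where 0.675% of all genes were higher and 0.271% lower. Unadjusted p was under 0.05 for 17 members higher in Het and 1 lower, and DESeq2's Wald test called 0 higher and 1 lower. The block by replicate number called Mrps18b and Mrps2 higher and Mrps6 lower. In 18 members (23.1%) all 4 Het libraries were above all 4 WT libraries, where 7.21% of all genes were. Mrpl12 was one of them, at 0.0801 to 0.0840 in Het against 0.0655 to 0.0728 in WT, with a log2 fold change of 0.25 ± 0.08 (adjusted p = 0.13). Mrps18b was another, at 0.0245 to 0.0314 in Het against 0.0217 to 0.0234 in WT (0.31 ± 0.10, adjusted p = 0.13).

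The Het effect at days 14 and 21 was then compared with that at day 8 in 1 model. The difference of the effects was above 0 for 70 of 78 members with a median of 0.12, against 0.02 for all genes. None passed in edgeR or by DESeq2's Wald test, 4 had an unadjusted p under 0.05, and 0.173% of all genes were called higher and 0.00493% lower. The largest difference was that of Mrps18b, at 0.37 ± 0.12 (unadjusted p = 0.0056, adjusted p = 0.49). Without replicate number 1, 6 members were called higher, and the share of all genes called in that fit is not given here. In simulated data this comparison recovered 28% of the genes changed 1.5-fold, so differences of the size seen here could go undetected.

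Proximal promoters of the members were read from RefSeq (GRCm38.p6), which held one for 69 of the 78 symbols, as 250 bases before to 50 bases after the annotated start. Promoters of this gene family are often bound by NRF1, by the ETS factor GABPA and by YY1, so 3 short motifs were searched on both strands. The NRF1 core GCGCATGC was found in 11.6% of the members (8 of 69), in 5.35% of the genes tested that had a promoter and in 3.05% of all genes with one. The ETS letters CCGGAAGT were found in 17.4% of the members, 7.97% of the genes tested and 4.31% of all genes. The YY1 letters AAGATGGC were found in 17.4%, 4.68% and 3.19%. At least 1 of the 3 was present in 29 of 69 members (42.0%), in 16.7% of genes tested and in 9.91% of all genes. Among the 14 members higher in Het that had a promoter, 8 held at least 1. The motif letters do not overlap each other. A match is a description of letters and not of a bound factor. Below are the 150 bases before the start of 4 of the members higher in Het, with matches in capitals, to show how close to the start they lay. The letters of Mrpl22 hold the NRF1 core, those of Mrps22 the ETS letters and those of Mrps26 their reverse complement. For Mrpl52 an ETS match on the opposite strand began at the first transcribed base, outside the letters shown.
Mrpl22, chr11:58171514-58171663, plus strand: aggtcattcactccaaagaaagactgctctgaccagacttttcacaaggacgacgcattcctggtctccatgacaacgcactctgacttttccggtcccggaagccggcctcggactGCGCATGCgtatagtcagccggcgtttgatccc
Mrps22, chr9:98601680-98601829, minus strand: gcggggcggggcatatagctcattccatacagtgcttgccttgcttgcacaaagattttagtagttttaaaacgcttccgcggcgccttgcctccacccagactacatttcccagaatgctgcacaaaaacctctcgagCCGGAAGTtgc
Mrps26, chr2:130563607-130563756, plus strand: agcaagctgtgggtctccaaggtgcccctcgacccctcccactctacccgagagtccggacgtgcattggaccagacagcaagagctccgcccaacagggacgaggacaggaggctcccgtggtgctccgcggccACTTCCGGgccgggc
Mrpl52, chr14:54426759-54426908, plus strand: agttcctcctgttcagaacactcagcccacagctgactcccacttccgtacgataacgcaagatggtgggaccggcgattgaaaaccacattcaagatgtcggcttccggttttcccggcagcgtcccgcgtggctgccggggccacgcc

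Genes that work with the mitochondrial ribosome were counted from lists in the same comparison of Het with WT at days 14 and 21, in which 7.27% of all genes were higher and 8.87% lower. In lists this short, 1 to 3 genes called lie near that share, and no list was tested against it. The 5 ribosomal proteins that carry other symbols, among them Dap3, a GTP-binding protein of the small subunit, had estimates from 0.06 (Ptcd3) to 0.16 (Chchd1), and 0 of them passed in edgeR, with 1 at an unadjusted p under 0.05. Of 29 genes of ribosome assembly and rRNA processing 3 were higher: the assembly factor Rbfa (1.19-fold, adjusted p = 0.0057), the GTPase Noa1 (1.17-fold, adjusted p = 0.017) and the RNA-binding protein Lrpprc (1.10-fold, adjusted p = 0.043). Of 16 genes listed for mitochondrial translation 4 were higher, led by the elongation factor Tsfm at 1.59-fold (adjusted p = 0.0014). Its RQ at day 14 was 0.0334 to 0.0619 in Het and 0.0294 to 0.0309 in WT. The others were Gfm2 (1.20-fold), Mtif3 (1.11-fold) and Letm1 (1.15-fold), which is an inner membrane protein and not a translation factor. The estimate of Tsfm was above that of every ribosomal protein gene. Of 17 mitochondrial aminoacyl-tRNA synthetases 1 was higher (Tars2, 1.10-fold), and of 13 regulators of mitochondrial transcription and biogenesis 1 was (Esrra, 1.10-fold).

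The RNAs that mitochondria make themselves did not show the same sign. Both rRNAs of the mitochondrial ribosome had estimates below 0 in Het, -0.18 ± 0.18 for mt-Rnr1 of the small subunit (adjusted p = 0.56) and -0.40 ± 0.20 for mt-Rnr2 of the large subunit (adjusted p = 0.17). All 13 mitochondrially encoded mRNAs had estimates below 0, with a median of -0.32, and 0 passed in edgeR at the adjusted or the unadjusted level of 0.05. These RNAs varied widely between libraries: at day 14 the RQ of mt-Rnr2 was 0.227 to 0.671 in WT and 0.214 to 0.301 in Het.

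For scale, of 80 cytosolic ribosomal protein genes tested 43 were higher in Het and 0 lower, with a median log2 fold change of 0.29, and of 79 nuclear genes of the respiratory chain and ATP synthase 6 were higher and 1 lower, with a median of 0.07. The difference between these lists and the mitochondrial ribosomal protein genes was not tested. The stress genes Atf5 (1.61-fold), Ddit3 (2.30-fold) and Trib3 (6.87-fold) were higher in Het by far more than any member.

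Comparison of days 14 and 21 with day 8 asked how the genes behaved as the confluent cultures matured. On the housekeeping scale 20 members (25.6%) rose and 10 (12.8%) fell, where 40.9% of all 20287 genes rose and 17.6% fell. Both shares lay below those of all genes on this scale, and the difference was not tested. Their median was 0.05, against 0.15 for all genes, and 44 of 78 estimates were above 0. This direction depended on the scale. With libraries scaled by TMM, which centres on the bulk of genes, 3 members rose and 38 fell, and with total counts 1 rose and 64 fell. Shares of all genes called on those scales are not given here, so these counts cannot be set against them. Relative to the median of all genes, which these scales moved from 0.15 to 0.01 and -0.14, the members lay at -0.11 on each of these scales. A change of scale moves all genes nearly alike, so this agreement was bound to arise and is no separate support.

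Mrpl24 of the large subunit rose most, from an RQ of 0.0905 to 0.111 at day 8 (lowest and highest of 8 libraries) to 0.112 to 0.177 at day 14 and 0.125 to 0.157 at day 21, with a log2 fold change of 0.41 ± 0.06 (adjusted p = 6.8e-06). No later library overlapped with day 8. The same held for Mrps18a (0.0363 to 0.0425 at day 8, 0.0456 to 0.0641 at day 14 and 0.0449 to 0.0519 at day 21, log2 fold change 0.34 ± 0.05) and for Mrps34, a small subunit protein without bacterial counterpart (0.27 ± 0.04). These 3 were 3.85% of the members, where 11.1% of all genes were so separated upward. Mrps28 (0.32), Mrpl30 (0.28), Mrps14 (0.28), Mrpl23 (0.27) and Mrps21 (0.25) completed the 8 largest rises. All of these values are on the housekeeping scale. With TMM or DESeq2 size factors Mrpl24 and Mrps18a kept their calls, and the other 6 lost theirs. With total counts Mrps18a lost its call too, and Mrpl23, Mrpl30, Mrps14, Mrps21 and Mrps34 had estimates below 0.

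The largest fall was that of Mrps27, a pentatricopeptide-repeat protein of the small subunit, from 0.0355 to 0.0408 at day 8 to 0.0270 to 0.0394 at day 21, with a log2 fold change of -0.22 ± 0.06 (adjusted p = 0.0027). Mrps2 (-0.21), Mrpl12 (-0.19), Mrpl38 (-0.18), Mrps18b (-0.18), Mrpl41 (-0.18), Mrpl18 (-0.17) and Mrps11 (-0.16) followed. The day 8 libraries overlapped with the later ones in each of the 10 that fell. These changes are averages over both genotypes, and the course within each genotype was not tested.

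The genes of the Mrps18 family, paralogs of bacterial S18 that occupy different places in the ribosome, took different courses. Mrps18a, which sits in the large subunit, rose after day 8 on the housekeeping scale and did not pass in Het (0.12 ± 0.06, adjusted p = 0.18). Mrps18b fell after day 8 as an average over both genotypes and was higher in Het. In WT its RQ was 0.0290 to 0.0375 at day 8 and 0.0217 to 0.0301 later. In Het it was 0.0273 to 0.0354 at day 8 and 0.0245 to 0.0325 later. The course within each genotype was not tested. Mrps18c, which takes the place of bacterial S18 in the small subunit, passed in neither comparison (0.13 ± 0.07 after day 8, adjusted p = 0.15, and 0.19 ± 0.09 in Het, adjusted p = 0.17). Its exons share 250 bases with Gm43511.

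The cell cycle and the cell types changed over the same days. All 16 cell cycle genes listed fell after day 8, with a median of -0.83, and their summed RQ was 2.84 to 3.52 at day 8 and 1.47 to 2.55 later. All 7 OB markers and all 8 macrophage markers rose, with medians of 4.04 and 3.75, and the summed RQ of the macrophage markers went from 0.216 to 0.932 at day 8 to 1.23 to 16.3 later. On the housekeeping scale both mitochondrial rRNAs rose as well, mt-Rnr1 1.64-fold (adjusted p = 0.00043) and mt-Rnr2 1.32-fold (adjusted p = 0.031). Other scales lowered the median of all genes in this comparison, and whether poly(A) selection was used is not known. The part of the cell cycle genes, cell types and rRNAs in the course of the members was not tested.

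Between day 14 and day 21, 6 members fell (7.69%, where 5.93% of all genes fell) and 0 rose (13.3% of all genes rose). Their median was -0.06 against 0.06 for all genes. Mrpl12 fell most, from an RQ of 0.0758 to 0.105 at day 14 to 0.0655 to 0.0840 at day 21 (8 libraries each), with a log2 fold change of -0.25 ± 0.05 (adjusted p = 0.0023). Mrpl38, a large subunit protein without bacterial counterpart, went from 0.0353 to 0.0490 at day 14 to 0.0329 to 0.0405 at day 21 (-0.22 ± 0.06, adjusted p = 0.011), and Mrps18b from 0.0245 to 0.0325 to 0.0217 to 0.0314 (-0.22 ± 0.06, adjusted p = 0.015). The days overlapped in all of them. The other members that fell were Mrpl57 (-0.17), Mrps23 (-0.15) and Mrps7 (-0.15). No member rose in edgeR or by DESeq2's Wald test, and 0 had an unadjusted p under 0.05 in that direction. Averaged over both genotypes, Mrpl12, Mrpl38, Mrps18b and Mrps7 thus fell over both time comparisons. They were higher in Het in the later cultures, and the comparisons share libraries.

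**Figure D4:**
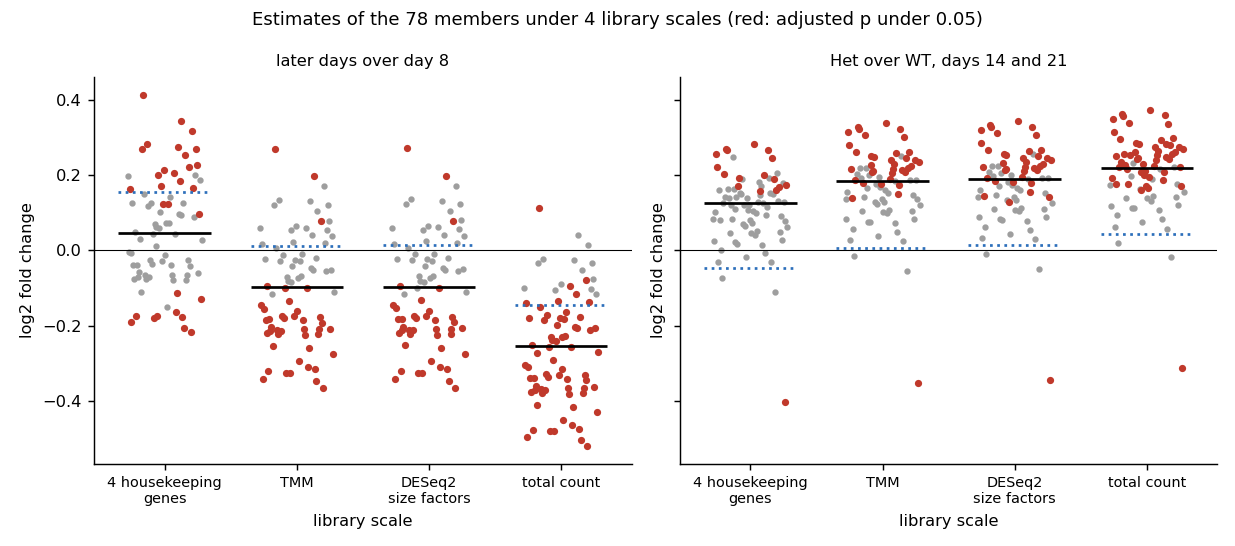
Log2 fold changes (vertical axis) of the 78 members for days 14 and 21 over day 8 (left) and for Het over WT at days 14 and 21 (right) with libraries scaled by the 4 housekeeping genes, TMM, DESeq2 size factors or total count, members with adjusted p under 0.05 in red, the members' median as a solid line and the median of all genes as a dotted line. The later days lie at 0.05, -0.10, -0.10 and -0.25 at the median, so their sign depends on the scale, and Het over WT lies at 0.13, 0.19, 0.19 and 0.22, above the median of all genes on each scale. A scale moves members and all genes nearly alike, so their order could hardly change between scales.

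The 17 members called at days 14 and 21 were also called with TMM, DESeq2 size factors and total count scaling, which called 35, 37 and 51 members higher and 1 lower each. With all libraries of replicate number 1 left out 41 members were higher and 1 lower, with number 2 left out 1 was higher, and with number 3 or 4 left out 0 were. Shares of all genes called under these alternatives are not given here, so these counts are not results about the members alone.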

How the data were processed

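The authors made counts per gene for the 24 libraries with cutadapt 2.5, STAR 2.73a and featureCounts 1.6.4 on mm10, per the labels. Whole-number counts were deposited unnormalized, with exon lengths. Of the 55335 versioned identifiers 54587 were found in GENCODE M21, which is a match of identifiers and not of lengths. Library preparation used a TrueSeq kit. Poly(A) selection, strandedness and the treatment of reads shared by overlapping genes are not given in the sources used here, and 33 of the 78 members share exon bases with another gene.

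Counts were tested with edgeR 4.0.16 in R 4.3.3 (filterByExpr, glmQLFit, glmQLFTest) with the geometric mean of the 4 housekeeping genes, which the study used, as library size. Het against WT at days 14 and 21 and day 21 against day 14 came from a model of day and genotype in 16 libraries, and the other comparisons from 6 group means in 24 libraries. The p-values of all genes tested were adjusted together. The members, gene lists and tests were chosen with earlier results of these data known. In every comparison the 8 largest rises and 8 largest falls among members called changed were named, with the 5 highest and 5 lowest levels per kilobase and members of known special role. In a test on simulated data, 90% of genes changed 1.5-fold were recovered for Het against WT at days 14 and 21, where member differences were smaller than that, and 28% for the difference of the effects. The simulated counts varied independently with a single fixed dispersion, and the housekeeping genes were held at their means. They held no replicate effect and no error of scale, so recovery in the real libraries may be lower.

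Deviations from group means were correlated between the genotypes at the same day. Libraries of the same number gave 0.199 to 0.788 (12 correlations), and those of different numbers gave -0.613 to 0.439 (36 correlations). Among numbers 2 to 4 the same-number values were 0.199 to 0.482. The ranges overlap, and deviations from a mean of 4 libraries push different-number values below 0. The numbers were treated as pairs, which these values do not settle. The fit with replicate number as a block is given where it moves a count. No 2 replicate libraries were alike within counting noise (chi-square per degree of freedom of at least 5.14). Alternatives were TMM, DESeq2 (1.42.0) size factors, total counts, no filter, DESeq2's Wald test, replicate number as a block or as number 1 against the others, and leaving out libraries.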

Additional observations from a re-analysis of the deposited data

Results flagged for a closer look

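In 21 of 228 sets of 4 libraries examined (37 named members in 6 groups, and the level of all members in 6 groups), the highest library lay apart from the other libraries of its group. For a single set chance gives about 1 in 20. The sets share libraries and the members move together, so the 228 are not separate trials and their share cannot be judged against that rate. In 17 of the 21 the highest library was replicate 1. In WT at day 14 these were Mrpl13 (RQ 0.0728, others 0.0633 to 0.0639), Mrpl2 (0.0491, others 0.0379 to 0.0394), Mrpl20 (0.114, others 0.0853 to 0.0883), Mrpl41 (0.0456, others 0.0319 to 0.0330), Mrpl57 (0.0437, others 0.0371 to 0.0382), Mrps14 (0.0642, others 0.0567 to 0.0578) and Mrps21 (0.0850, others 0.0676 to 0.0702). In WT at day 21 they were Mrpl18 (0.0752, others 0.0679 to 0.0683), Mrpl21 (0.0425, others 0.0357 to 0.0365), Mrpl24 (0.145, others 0.126 to 0.128), Mrps14 (0.0741, others 0.0593 to 0.0598) and Mrps27 (0.0312, others 0.0270 to 0.0276). In WT at day 8 they were Mrps18b (0.0375, others 0.0290 to 0.0304) and Mrps2 (0.0558, others 0.0469 to 0.0474). In Het they were Mrps14 (0.0608, others 0.0504 to 0.0514) and Mrps18b (0.0354, others 0.0273 to 0.0279) at day 8, and Mrps21 (0.0991, others 0.0691 to 0.0711) at day 21.

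Het day 14 replicate 2 stood apart for Mrpl30 (0.129, others 0.0856 to 0.0917), Mrpl52 (0.117, others 0.0929 to 0.0959) and Mrps18a (0.0641, others 0.0483 to 0.0489), and Het day 8 replicate 3 for Mrpl23 (0.0315, others 0.0270 to 0.0277). The level over all 78 members was in no group far enough apart to meet the same limit.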

How the results depend on the processing

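The median of the members kept its sign under all alternatives for Het against WT at days 14 and 21, day 14 and day 21, for the difference of the effects and for day 21 against day 14. Limits lay in the count of calls. Shares of all genes called under the alternatives are not given here, so the counts below are not results about the members alone. For Het against WT at days 14 and 21 (16 higher, 1 lower), the number higher was 35 with TMM, 37 with DESeq2 size factors, 51 with total counts, 8 with no filter on low counts and 27 by DESeq2's Wald test, which called 2 lower. The median was 0.22 with total counts. Leaving out replicates gave 0 to 41 higher, 0 to 2 lower and medians of 0.07 to 0.18. A single library moved the number higher to 25 (WT or Het day 14 replicate 1), 10 (Het day 14 replicate 2 or 4), 9 (WT day 21 replicate 3, Het day 21 replicate 4), 8 (WT day 14 replicate 2), 7 (WT day 14 or day 21 replicate 4) or 6 (WT day 14 replicate 3), and the number lower to 2 (Het day 14 replicate 3, Het day 21 replicate 1).

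At day 14 (3 higher, 0 lower) the counts higher were 23 with TMM and with DESeq2 size factors, 39 with total counts, 1 with no filter, 14 by the Wald test, 8 with the replicate block and 12 with number 1 against the others as a factor, and the median was 0.26 with total counts. Left-out replicates gave 0 to 46 higher and 0 to 1 lower: single libraries gave 19 (Het replicate 1), 12 (WT replicate 1) and 0 (WT replicates 2, 3 and 4, Het replicates 2 and 4). At day 21 (0 called) 5 were higher with TMM and with DESeq2 size factors, 10 with total counts, 2 with the replicate block and 4 with number 1 as a factor. There 1 was lower by the Wald test, with the replicate block, with number 1 as a factor and without Het replicate 1, and left-out replicates gave 0 to 9 higher and 0 to 1 lower. At day 8 the median was 0.11 with DESeq2 size factors and 0.10 with total counts, and left-out replicates gave 0 to 1 lower. For the difference of the effects they gave 0 to 6 higher.

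For days 14 and 21 against day 8 (20 higher, 10 lower, median 0.05) TMM gave 3 higher, 38 lower and a median of -0.10, DESeq2 size factors 3, 37 and -0.10, and total counts 1, 64 and -0.25. Total counts also turned the sign of Mrpl23 (-0.0326), Mrpl30 (-0.0217), Mrps14 (-0.0266), Mrps21 (-0.053) and Mrps34 (-0.0323). Left-out replicates gave 13 to 30 higher and 3 to 12 lower. For day 21 against day 14 (6 lower) the number lower was 16 with TMM, 18 with DESeq2 size factors, 19 with total counts, 3 with no filter and 11 with number 1 as a factor, and 1 to 15 with replicates left out. It was 3 without WT day 14 replicate 1 or 4, WT day 21 replicate 4, Het day 14 replicate 2 or Het day 21 replicate 2 or 3. Paired by replicate number, the other counts moved by less than 1.5 times, and 16 of the 17 calls of Het against WT at days 14 and 21 were kept, with Mrps30 lost. The 34 changes of named members had 1022 alternative values, of which 864 kept direction and call, 153 kept direction only and 5 turned sign. The causes were not tested.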
